A study of Mus musculus with 16 samples.

Results

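Alox5, Litaf, Parp1, Cdkn1b, Mmp9 and Mmp12 are the 6 genes whose rows the authors placed on a separate sheet beside their table of mice given minocycline alone. The sources used here do not give the reason for that selection. All 6 were found by symbol in both deposited tables, among 15983 genes of the table of CTRL, OLZ and OLZ+MINO and 16005 genes of the table of CTRL and MINO, with 15792 genes in common. Of the 48 values on the separate sheet, 48 were identical to those of the full table, so the sheet added no measurement.

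RNA was sequenced from the hypothalamus of female C57BL/6 mice, 4 mice per group and a library per mouse (n = 4 libraries per group, 16 libraries). Every group, CTRL included, was kept for 12 weeks on a diet in which fat supplied 45 kcal%, starting at 10 weeks of age. CTRL mice received that diet alone, OLZ mice the diet with 54 mg/kg of the antipsychotic olanzapine, MINO mice minocycline at 0.6 mg/ml in the drinking water, and OLZ+MINO mice both drugs at those doses. Values are scaled counts, that is, reads per gene multiplied by a factor for each library and rounded to whole numbers.

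Minocycline is a tetracycline antibiotic that enters the brain, where it is best known for dampening the activation of microglia, the resident macrophages of the tissue. It has been reported to inhibit several enzymes directly, among them 5-lipoxygenase, poly(ADP-ribose) polymerase 1 and matrix metalloproteinases. Such inhibition acts on the protein, and RNA-seq measures only the transcript.

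The scaled counts summed to between 8435016 and 9279227 per library in the table of 3 groups and to between 8783427 and 9447616 in the other, with an estimated 8 to 9.74 M reads behind them. The estimate took for each library the factor that best matched the gaps and doublings among its low scaled counts. The fit was poor in OLZ+MINO mouse 48 (Pearson r = 0.232), and r was 0.545 to 0.886 in the other libraries. If these factors hold, a scaled count of 10 stands for about as many reads, so that counting error alone is large for Alox5 and Mmp9. The 11 defining markers of the hypothalamus, among them Pmch, Avp and Oxt, were present in every library of the table of 3 groups. Their sum, however, was 886 in OLZ+MINO mouse 48 and 3503 in OLZ+MINO mouse 40, against 5774 to 10115 in the other 10 libraries. In the other table it was 3658 in MINO mouse 36, against 5809 to 10234 in the other 7 libraries. In MINO against CTRL, 0 of the 6 genes were called with or without that mouse. Of all 16005 genes, 0 were called with it and 1 without it, so these counts cannot show whether that library affected the 6. OLZ+MINO mouse 48 also had the lowest limma quality weight of the table of 3 groups (0.54), followed by CTRL mouse 5 (0.69). Differences were tested with limma on log2(scaled count + 1) over all genes of a table, and a gene is said to rise or fall at a Benjamini-Hochberg adjusted p under 0.3, the rate the study used. In bulk tissue, fewer cells of a type and less RNA per cell cannot be told apart.

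The 6 genes covered a wide range of levels. Per kb of exon, the mean scaled count in CTRL was 100.1 for Cdkn1b, 68.7 for Parp1, 42.2 for Mmp12, 24.0 for Litaf, 2.80 for Alox5 and 2.61 for Mmp9, against a median of 42.5 over the 15726 genes with an annotated length. Cdkn1b thus lay at percentile 75.3 of those genes and Mmp9 at percentile 2.1. Across the 24 combinations of gene and comparison, 1 passed the test, that of Litaf between OLZ+MINO and OLZ, and 23 did not. The same combination was the only 1 of the 24 in which the groups did not overlap and the only 1 with an unadjusted p under 0.05. Over all genes, 0 to 12.4% passed and 2.93 to 7.7% had groups without overlap, depending on the comparison. An unadjusted limma p under 0.05 was found in 6.19 to 14.88% of all genes.

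**Figure D1:**
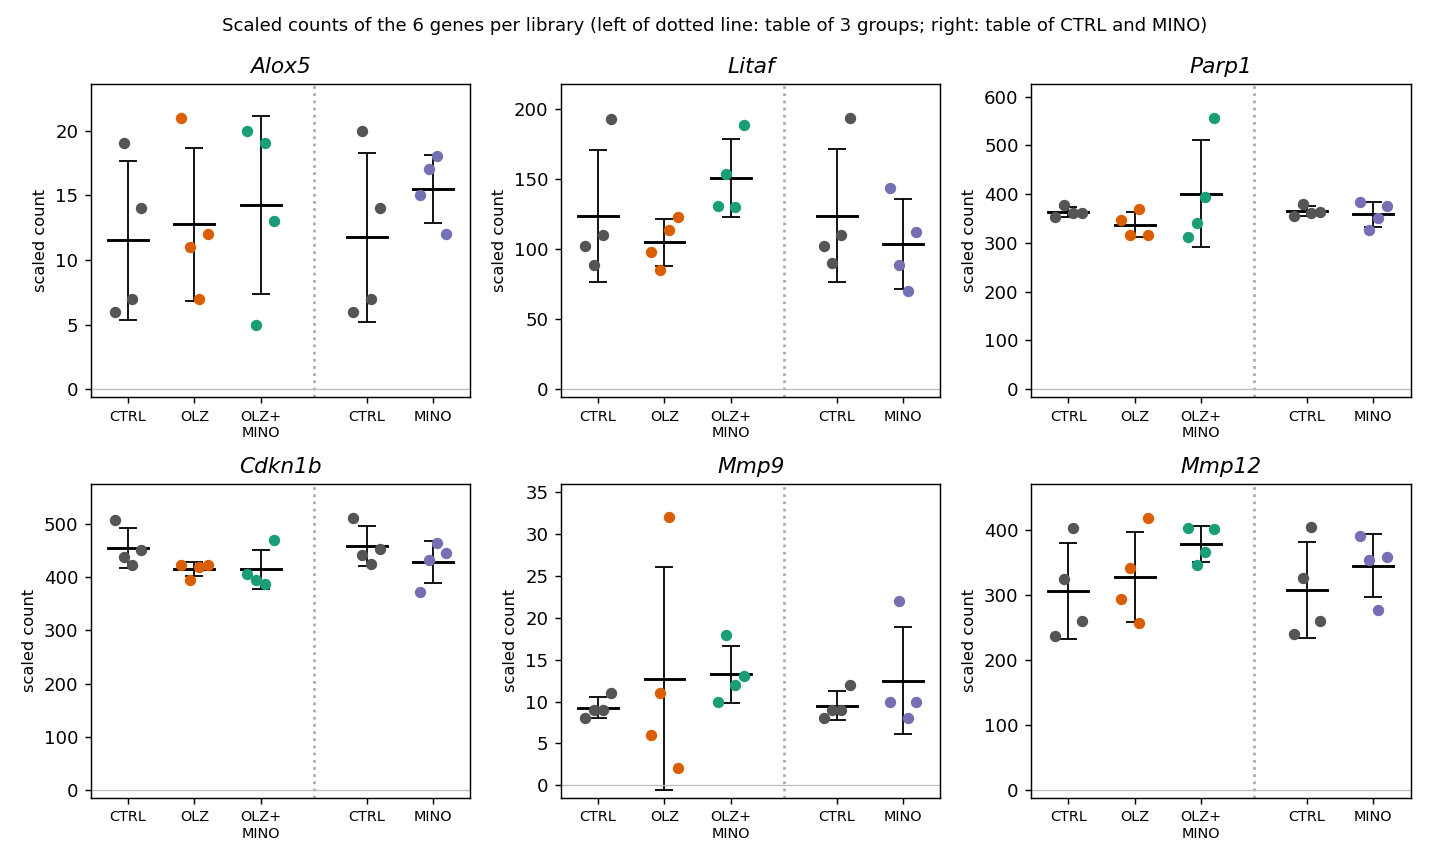
Scaled counts (vertical axis) of the 6 genes in every library, by group (horizontal axis). Points are libraries (n = 4 per group), horizontal lines are means and bars are SDs. The CTRL libraries appear on both sides of the dotted line because the tables were scaled separately, and only Litaf in OLZ+MINO (130 to 189) lies wholly above OLZ (85 to 123).

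Litaf encodes the lipopolysaccharide-induced TNF factor, a small membrane protein of late endosomes and lysosomes that binds the ubiquitin ligase NEDD4 and the sorting protein TSG101, and whose mutation causes a form of Charcot-Marie-Tooth neuropathy in humans. The gene lies on the minus strand of chromosome 16 at chr16:10959275-11066157 (GRCm38, ENSMUSG00000022500). Its scaled counts were 102, 89, 110 and 193 in CTRL mice 3, 4, 5 and 11, 98, 85, 114 and 123 in OLZ mice 13, 14, 17 and 19, and 131, 154, 130 and 189 in OLZ+MINO mice 37, 40, 47 and 48. All 4 OLZ+MINO libraries lay above all 4 OLZ libraries, while CTRL spanned both groups because CTRL mouse 11 had the highest value of the 12. The means (± SD, n = 4 per group) were 123.5 ± 47.1 for CTRL, 105.0 ± 16.9 for OLZ and 151.0 ± 27.7 for OLZ+MINO. Litaf rose by 0.52 on the log2 scale in OLZ+MINO against OLZ, a fold of 1.43 with a 95% interval from 1.04 to 1.97 (standard error 0.22 on the log2 scale, adjusted p = 0.278 from limma), and ranked 1764 of the 15983 genes by p. A two-sided exact permutation test gave p = 0.0286, unadjusted, the smallest that 4 against 4 libraries allow. Every gene whose groups do not overlap reaches that p, and 7.7% of all genes had no overlap in this comparison. Litaf did not pass at an adjusted p of 0.05. The call was also lost without OLZ mouse 13, 14 or 17 and without OLZ+MINO mouse 40 or 48, where the adjusted p from limma ran from 0.315 to 0.553.

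Against CTRL, Litaf had a log2 fold change of -0.18 in OLZ (95% interval -0.64 to 0.28) and of 0.34 in OLZ+MINO (95% interval -0.12 to 0.80), and neither passed. Minocycline without olanzapine was measured in the other table, where Litaf stood at 144, 89, 70 and 112 in MINO mice 26, 31, 35 and 36 and at 102, 90, 110 and 194 in the CTRL libraries. The groups overlapped, MINO having both the lowest value of the 8 and, after CTRL mouse 11, the highest. Of the MINO libraries, 2 (70 and 89) lay below the lowest CTRL library (90). The log2 fold change of MINO against CTRL was -0.24 (95% interval -0.80 to 0.33, adjusted p = 0.879 from limma). Without CTRL mouse 11 it was -0.0025, so that the negative value rested on that library. Whether the Litaf difference with minocycline depends on olanzapine was not tested, as each test was kept within a table.

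Several cell type markers differed along with Litaf between OLZ+MINO and OLZ, where 12.4% of all genes were called. The summed scaled count of 7 oligodendrocyte markers ran from 26661 to 40612 in OLZ+MINO and from 19192 to 26008 in OLZ, and 4 of the 7 rose (Mbp, Mag, Mobp and Opalin, a log2 fold change of 0.77 for Opalin). The 3 libraries with the highest Litaf, CTRL mouse 11 and OLZ+MINO mice 48 and 40, were also the 3 with the highest oligodendrocyte sum, at 41833, 40612 and 39762. The same 3 had the lowest sums of hypothalamic markers in the table of 3 groups, at 5774, 886 and 3503 in that order. Of 9 tanycyte markers, 8 fell, and their sum was 638 to 875 in OLZ+MINO against 1859 to 3481 in OLZ. Of 11 microglial markers, 4 fell (Tmem119, Csf1r, C1qb and C1qc) and none rose, with sums of 1814 to 2170 against 2316 to 2474. Of 11 hypothalamic markers, 4 fell (Avp, Pomc, Agrp and Sst) and none rose, with sums of 886 to 10115 against 6584 to 9740. Of 5 astrocyte markers, 2 fell (Gfap and Slc1a3) and none rose, with sums of 8092 to 9696 against 8875 to 11318. Neuronal markers rose in 4 of 7 and none fell, with sums of 19104 to 26123 against 17075 to 20401. The mean was nevertheless lower in OLZ+MINO for Gad1 (-0.53 on the log2 scale) and Gad2 (-0.36), neither of which passed. The mitochondrial ribosomal RNAs took 10.4 to 11.2% of the scaled counts in OLZ+MINO, against 7.08 to 8.06% in OLZ and 6.24 to 7.87% in CTRL. In the other table they took 9.12 to 11.8% in MINO and 6.24 to 7.87% in CTRL, so the share was higher in both groups given minocycline. The part of these differences in the Litaf value was not tested.

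**Figure D2:**
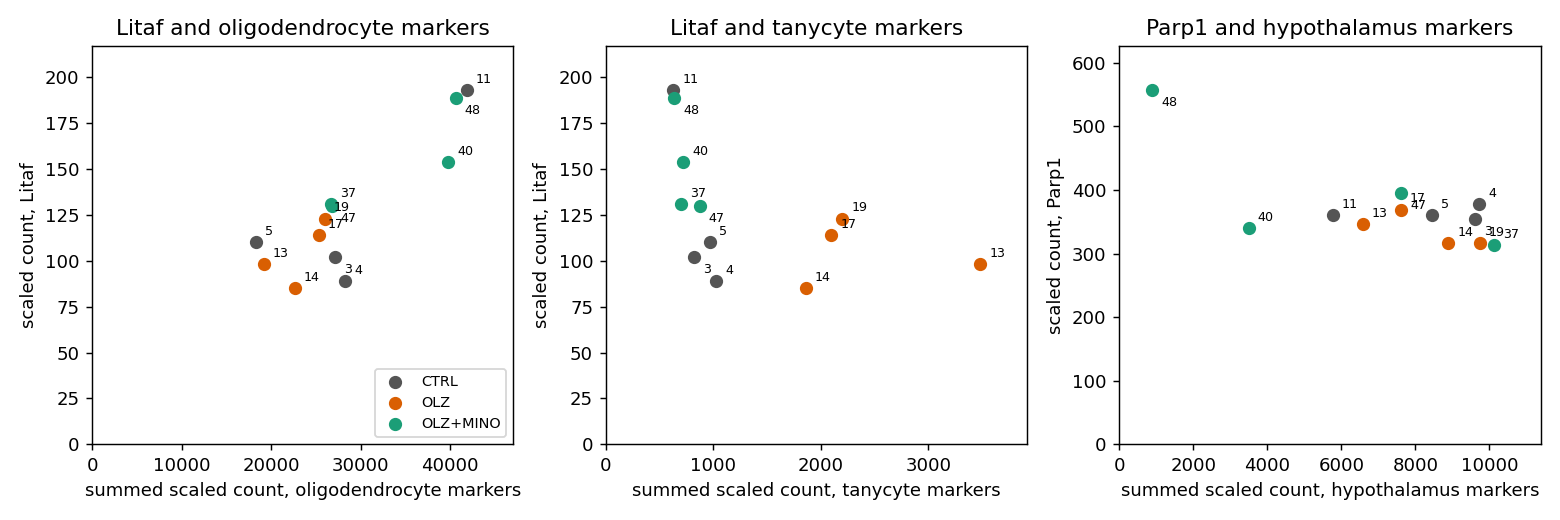
Scaled counts of Litaf and Parp1 (vertical axes) against summed scaled counts of marker lists (horizontal axes) in the 12 libraries of CTRL, OLZ and OLZ+MINO, labelled by mouse number. Litaf is highest in the 3 libraries with the highest oligodendrocyte sums (39762 to 41833), and Parp1 reaches 557 in mouse 48, where the hypothalamic sum is 886.

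Litaf shares its span with 7 other annotated genes, of which 2 are in the table. Snn, a protein-coding gene on the opposite strand whose exons overlap those of Litaf in the annotation, had a log2 fold change of -0.14 between OLZ+MINO and OLZ (adjusted p = 0.470 from limma). Gm4262, a non-coding RNA on the opposite strand with no exon in common, rose by 0.68 (adjusted p = 0.229 from limma). No source used here says whether the counting used strand, so reads of Litaf and Snn cannot be told apart where their exons overlap.

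Of 16 genes listed as partners of LITAF or as part of the induction of TNF, 15 were measured. Only Nedd4 passed in any comparison, in OLZ+MINO against OLZ, where 12.4% of all genes were called. Nedd4 had a mean scaled count of 5695 ± 174 for OLZ+MINO and 6347 ± 214 for OLZ (± SD, n = 4 per group). It fell by 0.16 on the log2 scale (adjusted p = 0.210 from limma), and its groups did not overlap, as in 7.7% of all genes. The median log2 fold change of the list was -0.04, against 0.00 over all genes of that comparison. Tnf itself was not among the listed genes of either table, in which no gene had a mean below 9.5. The genes whose pattern over the 12 libraries was most like that of Litaf were Fam134b (Pearson r = 0.926), Ppp1r7 (r = 0.921) and Kcna4 (r = 0.917), out of 11155 genes compared. These values describe the 12 libraries, which share their groups, scaling and cell make-up.

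Parp1 encodes the nuclear enzyme that binds broken DNA and builds chains of poly(ADP-ribose) on itself and on its neighbours. The gene is at chr1:180568924-180601254 on the plus strand (GRCm38, ENSMUSG00000026496), and the microRNA gene Mir6904 lies in it on the same strand. Its scaled counts were 354, 378, 361 and 361 in CTRL mice 3, 4, 5 and 11 and 346, 316, 369 and 317 in OLZ mice 13, 14, 17 and 19. In CTRL the SD was 10.2 at a mean of 363.5, less than the 19.1 that counting alone would give. OLZ+MINO mice 37, 40, 47 and 48 had 313, 340, 395 and 557, a spread of 109 (SD) around a mean of 401.25. The highest value, 557, came from mouse 48, the library with the lowest sum of hypothalamic markers. The OLZ and CTRL values ran from 316 to 378, with mouse 40 (340) inside that range. Mouse 37 (313) lay just below it and mouse 47 (395) above it.

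The log2 fold change of Parp1 was -0.11 for OLZ against CTRL (95% interval -0.41 to 0.19), 0.22 for OLZ+MINO against OLZ (95% interval -0.08 to 0.52, limma adjusted p = 0.491) and 0.11 when OLZ+MINO was set against CTRL (95% interval -0.19 to 0.40). None passed. Without mouse 48, the value for OLZ+MINO against OLZ was 0.05 and that for OLZ+MINO against CTRL was -0.06. Without OLZ+MINO mouse 37, the lowest library of that group, Parp1 rose by 0.32 against OLZ (adjusted p = 0.235 from limma). The 3 genes most like Parp1 over the 12 libraries were Necab2 (r = 0.944), Wls (r = 0.936) and Rtn4rl1 (r = 0.934). Mouse 48 enters these values, and they were not computed without it. With the summed hypothalamic markers, Parp1 had r = -0.819 over the 12 libraries and r = -0.131 without mouse 48.

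MINO gave the narrowest comparison for Parp1, with 383, 326, 352 and 375 in MINO mice 26, 31, 35 and 36 against 356, 380, 362 and 363 in the CTRL libraries. Those groups overlapped, and their means were 359.0 ± 25.6 and 365.25 ± 10.3 (± SD, n = 4 per group). The fold was 0.98 with a 95% interval from 0.86 to 1.12 (adjusted p = 0.966 from limma), which leaves room for a change of no more than about that size in either direction.

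Per kb of exon, the CTRL level of Parp1 was below that of the tankyrase genes Tnks2 (167.9) and Tnks (97.3) and above that of Parp2 (28.1), its closest relative. Of the 19 other genes of the PARP family and of poly(ADP-ribose) turnover, 19 were measured, and in OLZ+MINO against OLZ, where 12.4% of all genes were called, 1 rose and 3 fell. Tnks rose by 0.22, from a mean of 1352 in OLZ to 1589 in OLZ+MINO, while Tnks2 fell by 0.22, from 1823 to 1558. Parp12, an interferon-induced member, fell by 0.53, and Lig3, the DNA ligase of single-strand break repair, fell by 0.28. Of these 4 genes, only Lig3 had groups that did not overlap, beside 7.7% of all genes in that comparison. None of the 19 passed in OLZ against CTRL, OLZ+MINO against CTRL or MINO against CTRL, beside 3.64%, 0.025% and 0% of all genes. The list had a median log2 fold change of -0.12 in OLZ+MINO against OLZ and of 0.07 in OLZ against CTRL.

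Cdkn1b encodes p27Kip1, an inhibitor of cyclin-dependent kinases that holds cells out of division and is made by most non-dividing cells of the adult brain. It is at chr6:134920401-134925513 on the plus strand (GRCm38, ENSMUSG00000003031), overlaps no other annotated gene, and was the most abundant of the 6 per kb. Scaled counts were 509, 439, 424 and 451 in CTRL mice 3, 4, 5 and 11, 424, 396, 420 and 424 in OLZ mice 13, 14, 17 and 19, and 406, 396, 388 and 470 in OLZ+MINO mice 37, 40, 47 and 48. No OLZ library exceeded the lowest CTRL library, and 2 of them equalled it at 424. OLZ mouse 14 stood apart at 396 from the other 3 OLZ libraries, and the SD in OLZ (13.5 at a mean of 416.0) was again below counting error (20.4).

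The fold of Cdkn1b was 0.91 for OLZ against CTRL (95% interval 0.81 to 1.04, adjusted p = 0.596 from limma, two-sided exact permutation p = 0.0857). It was 0.995 for OLZ+MINO against OLZ (95% interval 0.88 to 1.13) and 0.91 for OLZ+MINO against CTRL (95% interval 0.80 to 1.03), and no comparison passed. In the other table, MINO mice 26, 31, 35 and 36 had 373, 433, 465 and 446 against 512, 442, 426 and 454 in CTRL, a fold of 0.94 (95% interval 0.81 to 1.08). Cdkn1b therefore had the tightest intervals of the 6 in the table of 3 groups. Its mean was lower than that of CTRL in each treated group, without passing the test. The genes most like it were Bivm (r = 0.879), Deb1 (r = 0.870) and Psmd4 (r = 0.861).

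Among 20 other cyclin-dependent kinase inhibitors, cyclins, kinases and regulators of p27, 17 were measured in the table of 3 groups and 3 fell in OLZ+MINO against OLZ, where 12.4% of all genes were called. Cdkn1c, which encodes the related inhibitor p57Kip2, had a mean scaled count of 17.0 in OLZ+MINO against 42.8 in OLZ and fell by 1.21 on the log2 scale. Cdk2, the kinase that p27 binds with cyclin E, fell by 1.32, at 6.00 ± 1.41 against 17.0 ± 6.78 (± SD, n = 4 per group), values that rest on few reads. Ccnd1, encoding cyclin D1, fell by 0.30. No gene of the list passed in the other comparisons, where 0 to 3.64% of all genes were called. The median of the list in OLZ+MINO against OLZ was -0.09.

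Alox5 encodes 5-lipoxygenase, which with the help of Alox5ap turns arachidonic acid into the precursor of the leukotrienes. It is at chr6:116410077-116461178 on the minus strand (GRCm38, ENSMUSG00000025701). Its scaled counts were 6, 19, 7 and 14 in CTRL mice 3, 4, 5 and 11, 21, 11, 7 and 12 in OLZ mice 13, 14, 17 and 19, and 20, 5, 19 and 13 in OLZ+MINO mice 37, 40, 47 and 48. All 3 groups ran from below 10 to about 20, and their SDs of 5.91 to 6.90 exceeded the 3.39 to 3.77 expected from counting. In the other table the MINO libraries stood at 15, 17, 18 and 12, inside the CTRL range of 6 to 20.

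All 4 comparisons left Alox5 with an interval that included both a fall and a rise. The fold was 1.13 for OLZ against CTRL (95% interval 0.52 to 2.46), 1.06 for OLZ+MINO against OLZ (0.49 to 2.32), 1.20 for OLZ+MINO against CTRL (0.55 to 2.62) and 1.42 for MINO against CTRL (0.71 to 2.82). None passed, and the widths of the intervals carry both the few reads and the spread between mice. The genes most like it were Zfp940 (r = 0.901), BC025920 (r = 0.862) and Vhl (r = 0.854).

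The leukotriene pathway around it was thinly measured. Of 16 other genes of arachidonate metabolism, 8 were in the table of 3 groups, and those not listed included Ltc4s, the leukotriene C4 synthase, and the leukotriene B4 receptors Ltb4r1 and Ltb4r2. Only Alox8, another lipoxygenase, passed, in OLZ+MINO against OLZ, where 12.4% of all genes were called. It rose by 0.84, the scaled count averaging 98.0 ± 23.0 against 55.3 ± 19.5 (± SD, n = 4 per group), the groups overlapping (adjusted p = 0.168 from limma). Per kb, Alox8 stood at 21.4 in CTRL and Alox5ap at 9.0, both above Alox5. The median of the list in that comparison was 0.04.

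Mmp9, or gelatinase B, cleaves type IV collagen of the basement membrane and is released by neutrophils, activated microglia and vessel cells. It is at chr2:164940780-164955850 on the plus strand (GRCm38, ENSMUSG00000017737). Scaled counts were 8, 9, 9 and 11 in CTRL mice 3, 4, 5 and 11, 6, 11, 32 and 2 in OLZ mice 13, 14, 17 and 19, and 10, 18, 12 and 13 in OLZ+MINO mice 37, 40, 47 and 48. OLZ held both the highest and the lowest value of the 12, with an SD of 13.4 at a mean of 12.75, where counting alone would give 3.57. CTRL by contrast had an SD of 1.26, under the counting error of 3.04.

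In OLZ+MINO, 3 of 4 libraries exceeded the highest CTRL library, and the fourth lay at 10, below the CTRL value of 11. The fold was 1.37 (95% interval 0.56 to 3.32, adjusted p = 0.903 from limma, two-sided exact permutation p = 0.0571), and Mmp9 did not pass. For OLZ+MINO against OLZ the log2 fold change was 0.55 (95% interval -0.73 to 1.83), and without OLZ mouse 19, the library with 2, it was -0.01. For OLZ against CTRL the log2 fold change was -0.09 although the mean was higher in OLZ, since the log scale gives the library with 2 more weight than that with 32.

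MINO mice 26, 31, 35 and 36 had 10, 22, 8 and 10 against 8, 9, 9 and 12 in CTRL, and mouse 31 stood apart from its group. The fold of Mmp9 in MINO against CTRL was 1.21 (95% interval 0.60 to 2.42), and without mouse 31 the log2 value was -0.02. None of 9 defining markers of neutrophils and monocytes, among them S100a8, S100a9 and Ly6g, was listed in either table. Over the 12 libraries the genes most like Mmp9 were Ruvbl2 (r = 0.949), Tra2b (r = 0.855) and Psma7 (r = 0.851).

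Mmp12, the macrophage elastase, degrades elastin and is a product of tissue macrophages. The gene is at chr9:7344381-7369499 on the plus strand (GRCm38, ENSMUSG00000049723), and exons of the related Mmp1b overlap it on the opposite strand. Mmp1b was not among the listed genes of the table of 3 groups, in which no gene had a mean below 9.5. Whether the counting used strand is not stated in any source used here. Any reads of Mmp1b therefore cannot be told apart from those of Mmp12 where their exons overlap. Scaled counts of Mmp12 were 237, 324, 402 and 259 in CTRL mice 3, 4, 5 and 11, 294, 341, 256 and 418 in OLZ mice 13, 14, 17 and 19, and 402, 345, 366 and 401 in OLZ+MINO mice 37, 40, 47 and 48. The 4 OLZ+MINO libraries lay together in the upper part of the range, above 3 of the 4 CTRL libraries, with an SD of 27.9 against 74.2 in CTRL and 69.8 in OLZ.

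The mean of Mmp12 was 305.5 in CTRL, 327.25 in OLZ and 378.5 in OLZ+MINO. OLZ+MINO against CTRL gave the smallest unadjusted p of the 6 genes in that comparison, with a fold of 1.26 (95% interval 0.99 to 1.61, adjusted p = 0.787 from limma, two-sided exact permutation p = 0.171), and did not pass. OLZ+MINO against OLZ gave a fold of 1.17 (0.92 to 1.49) and OLZ against CTRL 1.08 (0.84 to 1.37). MINO mice 26, 31, 35 and 36 stood at 390, 353, 276 and 358, against 239, 326, 404 and 260 in CTRL, a fold of 1.13 (0.89 to 1.45). In each comparison with CTRL the mean was higher in the treated group, and none passed the test.

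Mmp12 was far more abundant than Mmp9 per kb, at 42.2 against 2.61 in CTRL. It exceeded 4 of the 11 microglial markers, Tmem119 (38.4) and Aif1 (11.4) among them, and was below the other 7, such as Csf1r (79.0). It also exceeded all 3 measured markers of border macrophages, of which Mrc1 was the highest at 6.32. The sum of the microglial markers was 2316 to 2474 in OLZ and 1814 to 2170 in OLZ+MINO, where Mmp12 had its highest mean. The genes most like Mmp12 were Prl8a1 (r = 0.922), AC132444.6 (r = 0.920) and Frmd4a (r = 0.920).

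Of 21 other matrix metalloproteinases and their inhibitors, 14 were measured in the table of 3 groups, and those not listed included Mmp3, Mmp8, Mmp13 and Timp1, the main soluble inhibitor of MMP9. Per kb, Mmp12 was behind Mmp17 (60.5), Mmp16 (58.8) and Mmp24 (58.0), which are bound to the cell surface. Mmp15, another membrane-bound protease, was the only gene of the list to pass, beside 3.64% of all genes in OLZ against CTRL and 12.4% in OLZ+MINO against OLZ. It fell by 0.51 in OLZ against CTRL, from a mean of 216.0 ± 36.9 to 150.5 ± 21.0 (SD, n = 4 each, adjusted p = 0.271 from limma), and rose by 0.52 in OLZ+MINO against OLZ, to 218.5 ± 47.3 (SD, n = 4, adjusted p = 0.165). These comparisons share the 4 OLZ libraries. The median of the list was -0.21 in OLZ+MINO against OLZ.

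**Figure D3:**
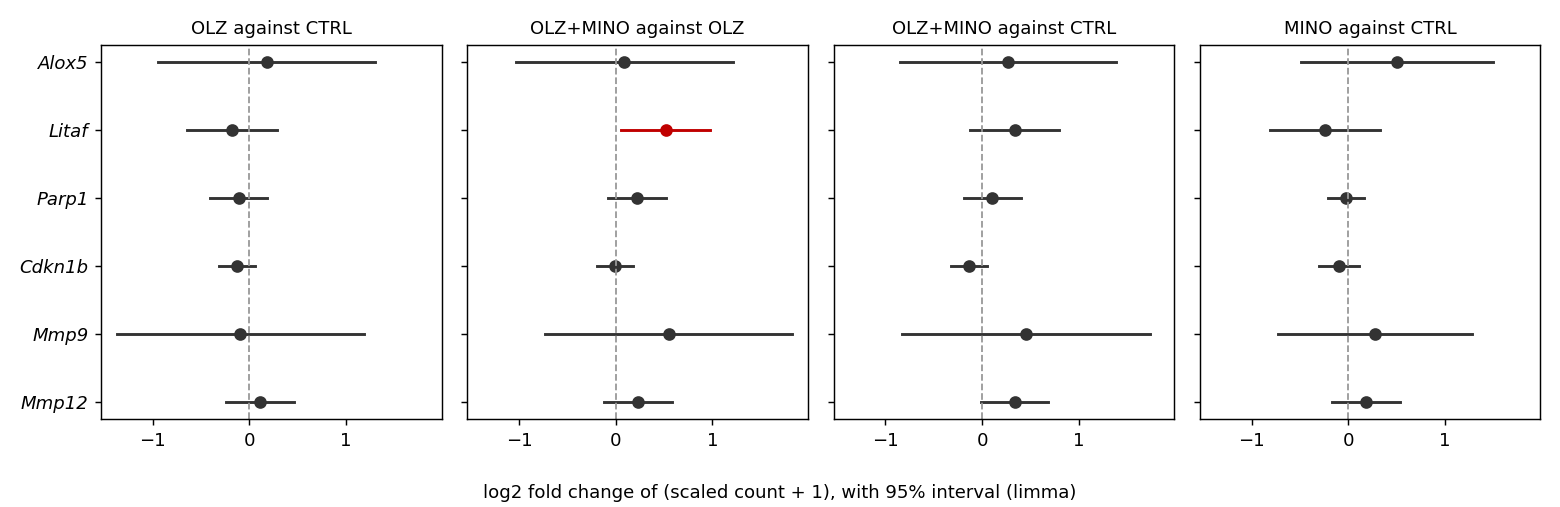
Log2 fold changes (horizontal axis) of the 6 genes (vertical axis) in the 4 comparisons, with 95% intervals from limma (n = 4 libraries per group). Litaf in OLZ+MINO against OLZ, in red, is the only interval that excludes 0 (0.05 to 0.98), and intervals are widest for Alox5 and Mmp9, the genes with the fewest reads.

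By comparison, minocycline alone left the 6 genes uncalled. In MINO against CTRL, 0 of the 6 passed and 0 had an unadjusted p under 0.05, beside 0% of all 16005 genes called by limma (0 genes, 1026 at an unadjusted p under 0.05). None had groups without overlap, beside 3.25% of all genes. The means of 3 of the 6 (Alox5, Mmp9 and Mmp12) were higher in MINO on the log2 scale and those of the other 3 were lower, with a median log2 fold change of 0.08 over the 6 and 0.00 over all genes.

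In OLZ+MINO against OLZ, 1 of the 6 passed (16.7%), beside 12.4% of all 15983 genes (1974, of which 958 rose and 1016 fell, or 712 and 2492 of 3204 with library totals set equal). In 1 of the 6 the groups did not overlap, beside 7.7% of all genes. A single gene is about what the share over all genes would give among 6. On the log2 scale 5 of the 6 were higher in OLZ+MINO, with a median of 0.22, but 4 of these 5 did not pass.

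In OLZ against CTRL, 0 of the 6 passed (3.64% of all genes, 582) and none had groups without overlap (6.95%), with 2 of the 6 higher, 4 lower and a median log2 fold change of -0.10. In OLZ+MINO against CTRL, 0 of the 6 passed (0.025% of all genes, 4) and none had groups without overlap (2.93%), with 5 of the 6 higher and a median of 0.30. Over all genes, the median log2 fold change was 0.00 in each comparison.

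**Figure D4:**
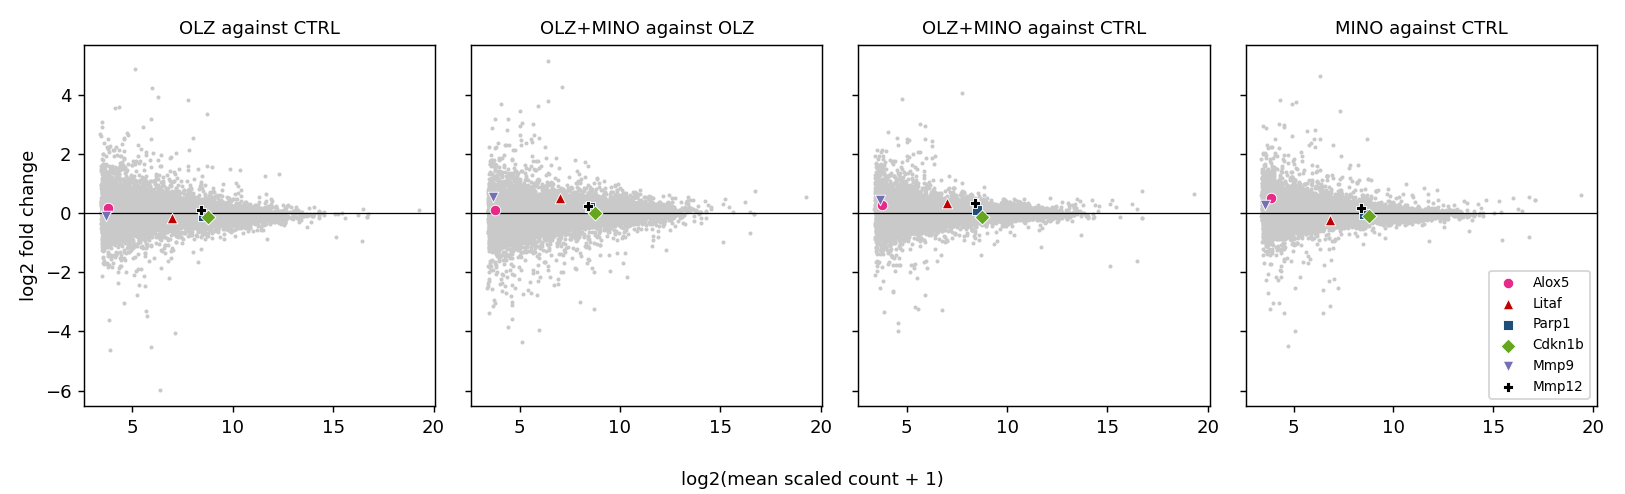
Log2 fold change (vertical axis) against the log2 mean scaled count plus 1 (horizontal axis) of all genes of a table (grey points) in the 4 comparisons, with the 6 genes as coloured symbols. The 6 genes lie inside the grey cloud in every panel, Alox5 and Mmp9 at its low end, where fold changes scatter most.

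Cycs, Vegfa, Mapk14 and Bcl2, which encode other proteins that minocycline has been reported to act on, did not pass in any of the 4 comparisons. Il1b, Il6, Ccl2, Casp1, Nos2 and Ccr2, set beside them for the same reason, were not listed in either table. Over all genes, 0 to 12.4% were called, depending on the comparison.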

How the data were processed

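Hypothalamic RNA-seq libraries of 16 mice, 4 per group, were grouped by the sample labels. Bowtie2 for mapping, RSEM for counting per gene and limma are the tools given by the authors, with mm9 as the build in the submitters' notes. Versions, scaling and low-value filters are not stated in any source read. The deposited signal values are read counts that the authors scaled by a factor per library and rounded. The CTRL values differed between the tables by factors of 1.00479 to 1.00615, which shows the scaling. The authors' own fold changes, log ratios and false discovery rates, also deposited, were not used. Raw reads could not be recovered from the rounded values, so no count test was run.

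The 6 rows were matched by symbol, and Ensembl identifiers were matched to GENCODE M21 (GRCm38) for positions and exon length, which entered no test. Log2(value + 1) was fitted in limma 3.58.1 under R 4.3.3 (lmFit, then eBayes with trend = TRUE), jointly for CTRL, OLZ and OLZ+MINO and separately for CTRL and MINO. A minimum group mean of 1 removed no gene. Benjamini-Hochberg adjustment covered every gene of the table concerned, with a threshold of 0.3 and 0.05 beside it. Exact permutation tests, two-sided, compared mean log2 values over the 70 splits (scipy 1.17.1). The limma script was tested on simulated data.

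Members and lists were chosen with earlier results of these data known, so neither is independent of them. Named genes are the 6, the 3 genes with the highest Pearson r to each over 12 libraries (mean of at least 50, no predicted genes or date-like symbols), at most 4 genes of a list that passed or define it, and marker genes. A result that needs a withheld item is not reported here. Gm4262 and Snn were named because they overlap Litaf. Alternatives were quantile normalization, equal library totals, pseudocounts of 0.1 and 10, a mean of at least 50, no filter, no intensity trend, array quality weights, a threshold of 0.05, only the compared groups, and each library left out. Leaving out CTRL mouse 5 and OLZ+MINO mouse 48 together, the libraries with the lowest quality weights of the table of 3 groups, was added after seeing the data. OLZ+MINO mouse 40, with a hypothalamic marker sum of 3503, was kept in that setting.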

Additional observations from a re-analysis of the deposited data

Results flagged for a closer look

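Of the 24 groups of 4 libraries formed by the 6 genes, 2 held a library far from its group, where chance gives about 1 in 20. Cdkn1b in OLZ mouse 14 had a scaled count of 396, with the other 3 OLZ libraries between 420 and 424. The gap made up 0.857 of the range of the group, above Dixon's 95% critical value for 4 samples, in a group whose SD (13.5) was below counting error (20.4). Mmp9 in MINO mouse 31 had a scaled count of 22, with the other 3 MINO libraries between 8 and 10, a gap that also made up 0.857 of the range. Without mouse 31 the log2 fold change of Mmp9 in MINO against CTRL was -0.02 in place of 0.27.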

How the results depend on the processing

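The rise of Litaf in OLZ+MINO against OLZ kept its direction in all 22 alternatives (log2 fold change 0.40 to 0.60) and passed in 15, with an adjusted p from limma between 0.164 and 0.553. It was lost without the intensity trend (adjusted p = 0.368), without OLZ mouse 13, 14 or 17, without OLZ+MINO mouse 40 or 48, and without CTRL mouse 5 and OLZ+MINO mouse 48 together (0.529). The number of the 6 genes called in that comparison was accordingly 0 at a threshold of 0.05, without the trend and without that pair of libraries. It ranged from 0 to 2 with each library left out, the 2 being Litaf and Parp1 without OLZ+MINO mouse 37. In the other 3 comparisons it was 0 throughout.

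Counts over all genes moved far more. A threshold of 0.05 left 2, 54 and 0 genes in OLZ against CTRL, OLZ+MINO against OLZ and OLZ+MINO against CTRL. Without the trend they were 193, 1023 and 15. Without CTRL mouse 5 and OLZ+MINO mouse 48, the libraries with the lowest quality weights, they were 2116, 743 and 0. OLZ against CTRL gave 1652 genes with quality weights and 1559 with only the compared groups, and OLZ+MINO against OLZ gave 3204 with equal totals. OLZ+MINO against CTRL gave 0 under each of those settings. With each library left out the counts were 2 to 1470 (fewest without OLZ mouse 13, most without OLZ+MINO mouse 48), 187 to 2834 (OLZ mouse 13, OLZ+MINO mouse 37), 0 to 4, and 0 to 3 in MINO against CTRL. The causes were not tested.

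Values of uncalled genes near 0 changed sign. With a pseudocount of 10, Mmp9 in OLZ against CTRL was 0.078. Without CTRL mouse 5 and OLZ+MINO mouse 48, Parp1 in OLZ+MINO against CTRL was -0.067. With each library left out, log2 fold changes in OLZ against CTRL ranged from -0.081 to 0.45 for Alox5, -0.31 to 0.056 for Litaf, -0.69 to 0.46 for Mmp9 and -0.020 to 0.25 for Mmp12. In OLZ+MINO against OLZ they ranged from -0.14 to 0.49 for Alox5, -0.068 to 0.024 for Cdkn1b and -0.0084 to 1.14 for Mmp9. Parp1 ranged from -0.064 to 0.21 in OLZ+MINO against CTRL and from -0.059 to 0.018 in MINO against CTRL, where Mmp9 ranged from -0.016 to 0.44.

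No paired analysis was possible because every mouse number occurs in a single group. The edgeR and DESeq2 alternatives were not run, since reads could not be recovered. Alox5 and Mmp9 rest on 2 to 32 scaled counts per library, and the 95% intervals of their folds reached up to 2.82 and 3.55.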
